A study of Mus musculus with 8 samples.

Results

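Nr3c1, the glucocorticoid receptor, and 8 genes that respond to it (Fkbp5, Tsc22d3, Zbtb16, Sgk1, Cdkn1a, Mt1, Mt2 and Klf9) were followed in hearts of mice that lack the voltage-gated proton channel HVCN1 and in wild-type (WT) hearts. The members were listed by symbol and found by Ensembl identifier, and all 9 of them were among the 39056 genes of the count table and among the 14796 genes that passed a filter on low counts. The hearts came from 4 male HVCN1 null mice (hearts 1 to 4) and 4 male WT mice (hearts 5 to 8), all 3 months old. The WT mice were on a C57BL/6 background, all mice were housed in a daily light-dark cycle, and the labels name no agent. Each heart gave 1 poly-A library, and the null allele (HVCN1-/-) is not restricted to cardiac cells.

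Glucocorticoids are steroid hormones of the adrenal cortex, and their blood level follows the time of day, feeding and stress. The hormone enters the cell and binds the receptor, which is held ready by HSP90 and its co-chaperones. The bound receptor moves to the nucleus, where it raises or lowers transcription from sites called glucocorticoid response elements. In cardiac myocytes the receptor is needed for normal contraction, and its target genes act in feedback, growth arrest, metal binding and fuel choice.

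Total counts ran from 25851255 to 38874640 per heart. Levels are in CPM, the counts of a gene scaled to a fixed library total, on library sizes scaled by the TMM method. A positive log2 fold change means a higher level in HVCN1 null hearts. Fold changes come from edgeR's quasi-likelihood test with p-values adjusted over all 14796 genes by the Benjamini-Hochberg method, and a gene was called differentially expressed (a DEG) at an adjusted p under 0.05. Each member's difference in mean CPM had an exact permutation test too, two-sided, whose smallest p with 4 and 4 hearts is 0.0286. Hvcn1 itself checked the labels, with 318 counts in all WT hearts together and 16 in the HVCN1 null hearts. The cardiomyocyte markers were high in every heart, with Myh6 between 24793 and 32270 CPM. The atrial light chain Myl7 divided both groups, at 577.6 to 1185 CPM in hearts 2, 3, 5 and 7 and at 0.169 to 33.6 CPM in hearts 1, 4, 6 and 8, so each genotype holds 2 hearts with and 2 nearly without atrial RNA. Among the latter, Myl7 was 17.0 and 33.6 CPM in HVCN1 null hearts 1 and 4 but 0.618 and 0.169 CPM in WT hearts 6 and 8. Fold changes within these hearts therefore compare genotypes whose small atrial share is not matched. In whole-heart RNA, fewer cells of a type and less RNA per cell cannot be told apart.

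None of the 9 genes was a DEG, where 1.14% of all tested genes were. Fkbp5, Tsc22d3 and Cdkn1a had the largest positive log2 fold changes (0.53, 0.33 and 0.45) and Zbtb16 and Klf9 the largest negative ones (-0.47 and -0.31). Of the 9, 5 had values above 0 and 4 below, with a median of 0.18 beside -0.01 over all tested genes. At an unadjusted edgeR p under 0.05 there was 1 member, Fkbp5, with a higher level in HVCN1 null hearts, and 11% of all tested genes (5.46% higher and 5.52% lower). The HVCN1 null and WT hearts overlapped in CPM for each of the 9, whereas they did not overlap for 7.06% of all tested genes (HVCN1 null above WT in 3.6% and below in 3.45%). No member was a DEG by edgeR's exact or likelihood ratio test, by DESeq2 or by limma's voom either.

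The receptor gene Nr3c1 (ENSMUSG00000024431, chromosome 18, 39410545 to 39519421 in GRCm38) had 77.4, 70.4, 60.0 and 71.6 CPM in HVCN1 null hearts 1 to 4 and 65.2, 82.1, 78.1 and 78.9 CPM in WT hearts 5 to 8. Heart 3 was lowest and heart 6 highest, and the groups overlapped. The means were 69.8 ± 7.23 and 76.1 ± 7.47 CPM (SD, n = 4 each). The log2 fold change was -0.12 (95% interval -0.36 to 0.11, edgeR quasi-likelihood adjusted p = 0.808), and the exact permutation p was 0.286. Nr3c1 varied least of the 9 genes, with a coefficient of variation of 10.4% in HVCN1 null and 9.82% in WT hearts.

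Fkbp5 (ENSMUSG00000024222, chromosome 17, 28399094 to 28517527) encodes FKBP51, an HSP90 co-chaperone that is induced by the receptor and lowers the receptor's affinity for hormone, a feedback loop. It had 13.8, 19.9, 16.2 and 10.3 CPM in HVCN1 null hearts and 11.8, 10.4, 7.49 and 12.0 CPM in WT hearts. HVCN1 null hearts 1, 2 and 3 lay above every WT heart, while heart 4 lay below 3 of the 4 WT hearts. The means were 15.0 ± 4.04 and 10.4 ± 2.08 CPM (SD, n = 4 each). The log2 fold change of 0.53 had a 95% interval of 0.07 to 0.99 and the smallest p of the members, 0.0271 before adjustment, and it ranked 1107 of 14796. After adjustment it was not called (edgeR quasi-likelihood adjusted p = 0.362), and the exact permutation p was 0.114. Without heart 4, the only HVCN1 null heart that overlapped with WT, the groups did not overlap. The exact permutation p was then 0.0286, the smallest the remaining hearts allow, so it follows from which heart was left out. Omission of any other heart gave 0.143 to 0.257, highest without HVCN1 null heart 2. The log2 fold change was 0.36 to 0.67 over these fits. In the 4 hearts with atrial RNA the Fkbp5 log2 fold change was 0.90, and in the 4 hearts nearly without it 0.12 (edgeR quasi-likelihood adjusted p = 0.598 and 0.920).

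Tsc22d3 (ENSMUSG00000031431, chromosome X, 140539528 to 140600659) encodes GILZ, a leucine zipper protein that carries part of the anti-inflammatory action of glucocorticoids. It had 78.5, 110.6, 95.9 and 78.6 CPM in HVCN1 null hearts and 89.8, 69.8, 74.2 and 55.0 CPM in WT hearts. Heart 2 was highest and heart 8 lowest, and WT heart 5 lay within the HVCN1 null range. Tsc22d3 had a log2 fold change of 0.33 (95% interval -0.02 to 0.69, edgeR quasi-likelihood adjusted p = 0.498), with 90.9 ± 15.5 CPM against 72.2 ± 14.3 CPM (SD, n = 4 each, exact permutation p = 0.143). It was 0.33 with and 0.35 without atrial RNA.

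Cdkn1a (ENSMUSG00000023067, chromosome 17, 29090976 to 29100727) encodes p21, an inhibitor of cyclin-dependent kinases that is raised by glucocorticoids and by p53. It had 48.4, 68.9, 57.2 and 35.3 CPM in HVCN1 null hearts and 50.1, 42.7, 34.6 and 26.4 CPM in WT hearts. Hearts 2 and 3 lay above every WT heart and heart 4 among the lower WT hearts. Cdkn1a had a log2 fold change of 0.45 (95% interval -0.05 to 0.95, edgeR quasi-likelihood adjusted p = 0.530), with means of 52.4 ± 14.2 and 38.4 ± 10.2 CPM (SD, n = 4 each, exact permutation p = 0.200). Of its exon bases, 7.68% are shared with a gene annotated on the other strand.

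Sgk1 (ENSMUSG00000019970, chromosome 10, 21882184 to 21999903) encodes a kinase that glucocorticoids and mineralocorticoids both induce and that acts on sodium channels and cell survival. One of its 6 RefSeq promoter windows, each taken from 250 bases before to 50 after a start, holds the full palindrome (AGAACA, any 3 bases, TGTTCT), which was found in 3 of 32851 such windows in the mouse genome (0.00913%). The stretch is chr10:21993661-21993755 on the + strand of GRCm38, shown because it carries the best match to a glucocorticoid response element among the members, with the palindrome in capitals.
Sgk1: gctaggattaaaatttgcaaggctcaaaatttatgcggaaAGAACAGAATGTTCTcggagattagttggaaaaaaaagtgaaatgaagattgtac
Sgk1 had 93.9, 78.0, 70.6 and 59.3 CPM in HVCN1 null hearts and 78.8, 77.0, 58.6 and 51.1 CPM in WT hearts. Heart 1 was highest, and the other HVCN1 null hearts fell within the WT range. Sgk1 had a log2 fold change of 0.18 (95% interval -0.20 to 0.56, edgeR quasi-likelihood adjusted p = 0.822, exact permutation p = 0.429).

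Zbtb16 (ENSMUSG00000066687, chromosome 9, 48654297 to 48836222) encodes PLZF, a zinc finger repressor that is one of the genes most strongly induced by glucocorticoids in many tissues. Its values were 21.5, 30.6, 14.7 and 17.5 CPM in HVCN1 null hearts and 17.1, 29.4, 24.0 and 46.6 CPM in WT hearts. Heart 8 stood above all others, and the remaining WT hearts lay within the HVCN1 null range. Zbtb16 had a log2 fold change of -0.47 (95% interval -1.13 to 0.19, edgeR quasi-likelihood adjusted p = 0.676, exact permutation p = 0.314). It was 0.14 in the 4 hearts with atrial RNA and -0.95 in the 4 hearts nearly without it. Without WT heart 8 the value was -0.15.

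Klf9 (ENSMUSG00000033863, chromosome 19, 23141226 to 23168134) encodes a zinc finger transcription factor that answers to glucocorticoids and thyroid hormone. It had 60.0, 80.5, 56.7 and 56.6 CPM in HVCN1 null hearts and 62.0, 87.9, 81.1 and 84.3 CPM in WT hearts. HVCN1 null hearts 1, 3 and 4 lay below every WT heart, and heart 2 lay among the WT hearts. The means were 63.5 ± 11.4 and 78.8 ± 11.5 CPM (SD, n = 4 each), with a log2 fold change of -0.31 (95% interval -0.63 to 0.01, edgeR quasi-likelihood adjusted p = 0.473) and the smallest exact permutation p of the 9 members, 0.0571. The log2 fold change was -0.07 with and -0.55 without atrial RNA.

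**Figure D1:**
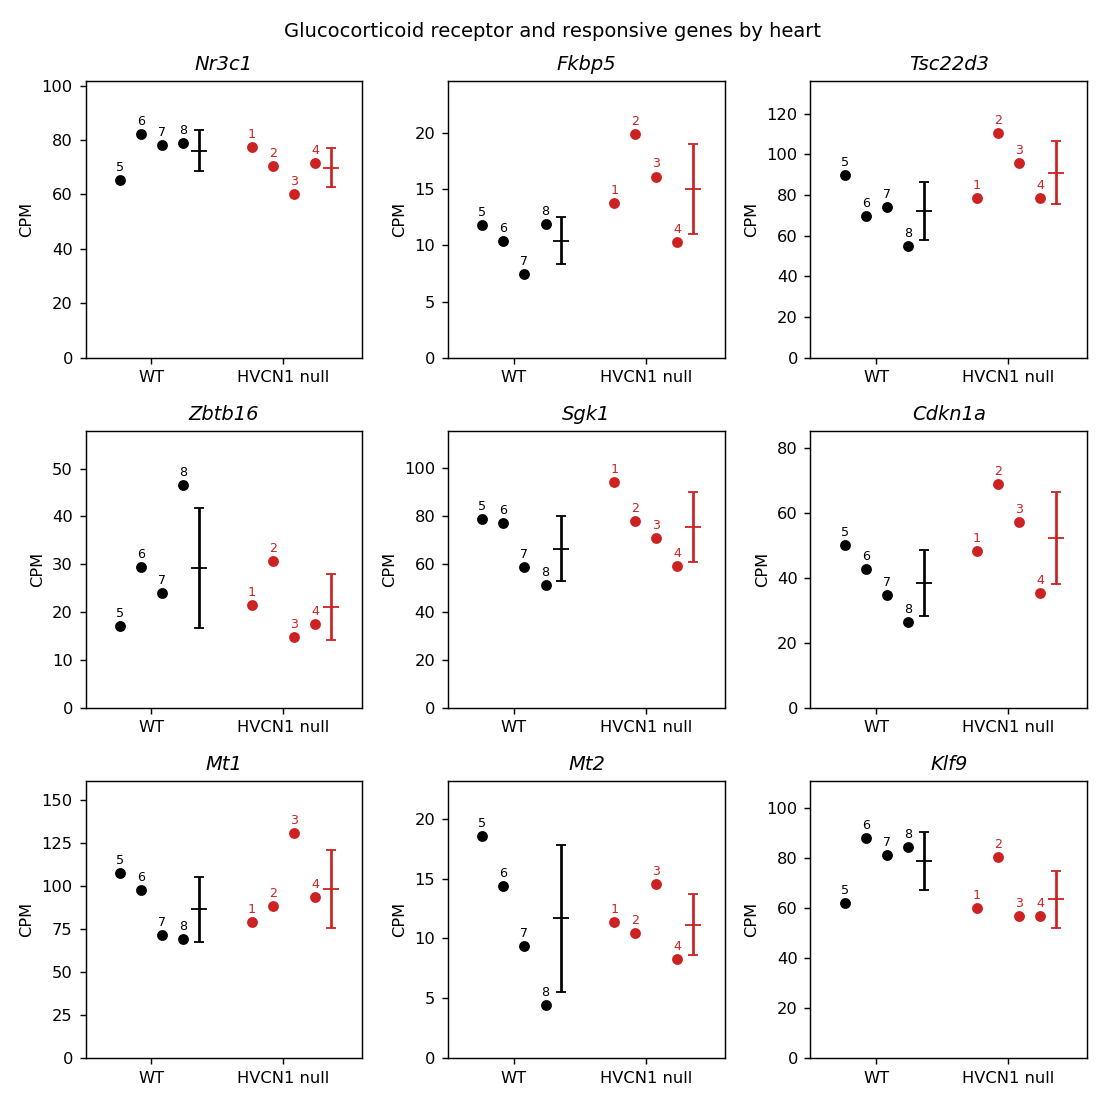
Each panel plots 1 gene in CPM (linear axis from 0), with 1 numbered point per heart and the mean with SD to the right of each group (n = 4 each, WT in black, HVCN1 null in red). The groups overlap in every panel, and HVCN1 null heart 2 is highest for Fkbp5 (19.9 CPM), Tsc22d3 (110.6 CPM) and Cdkn1a (68.9 CPM).

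Mt1 and Mt2 encode metallothioneins, small cysteine-rich proteins that bind zinc and copper and are induced by metals through the factor MTF1 and by glucocorticoids. The genes lie side by side on chromosome 8, Mt2 at 94172664 to 94173568 (ENSMUSG00000031762) and Mt1 at 94179082 to 94180327 (ENSMUSG00000031765). Their upstream stretches in RefSeq on GRCm38 (+ strand, chr8:94178839-94179088 for Mt1 and chr8:94172368-94172617 for Mt2) are shown because the pair shares an inducer. Capitals mark metal response elements (TGCACNC or TGCGCNC on either strand) and, in Mt1, also a relaxed glucocorticoid response element (GNACA, any 3 bases, TGTNC, which every full palindrome also matches).
Mt1: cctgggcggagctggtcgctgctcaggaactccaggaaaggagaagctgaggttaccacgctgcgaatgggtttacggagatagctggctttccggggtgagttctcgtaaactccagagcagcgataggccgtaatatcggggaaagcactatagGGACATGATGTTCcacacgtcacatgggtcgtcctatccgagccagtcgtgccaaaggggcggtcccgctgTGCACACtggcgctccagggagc
Mt2: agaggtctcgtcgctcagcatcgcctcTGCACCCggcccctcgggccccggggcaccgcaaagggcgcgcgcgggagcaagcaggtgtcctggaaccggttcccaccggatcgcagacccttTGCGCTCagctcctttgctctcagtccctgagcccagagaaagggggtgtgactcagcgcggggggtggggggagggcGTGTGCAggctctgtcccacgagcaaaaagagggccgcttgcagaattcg
The metal motif occurs in 25.7% of 32851 windows of the same length, and the whole windows held 3 matches for Mt1 and 4 for Mt2, of which some lie beyond the start and are not printed. The relaxed glucocorticoid motif occurs in 0.475% of windows, and among the members in those of Mt1 and Sgk1. No window was matched for Nr3c1 and Zbtb16.

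Mt1 had 79.3, 88.6, 131.0 and 93.5 CPM in HVCN1 null hearts and 107.6, 97.5, 71.6 and 69.1 CPM in WT hearts. Mt2 had 11.4, 10.4, 14.5 and 8.31 CPM in HVCN1 null hearts and 18.6, 14.4, 9.34 and 4.42 CPM in WT hearts. For both genes heart 3 was the highest HVCN1 null heart, heart 5 the highest WT heart and heart 8 the lowest of all. The log2 fold change of Mt1 was 0.18 (95% interval -0.23 to 0.59, edgeR quasi-likelihood adjusted p = 0.847, exact permutation p = 0.486). That of Mt2 was -0.07 (95% interval -0.86 to 0.71, edgeR quasi-likelihood adjusted p = 0.980, exact permutation p = 0.886), and it turned to 0.25 without WT heart 5. Mt2 varied most of the 9 genes in WT hearts, with a coefficient of variation of 52.5%, against 23.1% in HVCN1 null hearts. In GENCODE M21 the antisense gene Gm45774 covers 73.5% of the exon bases of Mt2 and was not matched in the counts used here, and the libraries were strand-selected, but whether counting used strand is not given in the sources used here, so the level of Mt2 is uncertain.

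Per kilobase of exon (FPKM, from the same scaled CPM), the order of mean levels in WT hearts was Mt1 (69.4 ± 15.3), Mt2 (19.9 ± 10.4), Tsc22d3 (16.6 ± 3.29), Klf9 (16.4 ± 2.40), Sgk1 (13.5 ± 2.79), Cdkn1a (10.8 ± 2.88), Nr3c1 (9.90 ± 0.972), Zbtb16 (5.54 ± 2.38) and Fkbp5 (1.10 ± 0.220, SD, n = 4 each). The WT hearts of Mt1 (55.5 to 86.3 FPKM) did not overlap those of Mt2 (7.52 to 31.6 FPKM), and those of Fkbp5 (0.791 to 1.26 FPKM) did not overlap those of Zbtb16 (3.23 to 8.81 FPKM). The neighbours in between overlapped with one another. Lengths are those of all annotated exons joined, which can be longer than the transcripts made in the heart.

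Some pairs of members went up and down together from heart to heart and as many ran against each other. HVCN1 null heart 2 was the highest of its group for 5 of the 9 genes and heart 4 the lowest for 5. Among WT hearts, heart 5 was highest for 5 and lowest for 3, and heart 8 was lowest for 5 and highest for 2. Over the 8 hearts the largest Pearson's r of log2 CPM was that of Tsc22d3 and Cdkn1a (r = 0.924, exact permutation p = 0.00174, Spearman's rho = 0.881, exact permutation p = 0.00724). Adjusted over the 36 pairs computed, these p-values were 0.0625 and 0.130, and without hearts 2 and 8, the farthest from the median of Tsc22d3, r was 0.727 (exact permutation p = 0.110). Next came Zbtb16 and Klf9 (r = 0.853, exact permutation p = 0.00737, rho = 0.762, exact permutation p = 0.0368, adjusted p = 0.133 and 0.207). Without hearts 3 and 8 this r was 0.883 (exact permutation p = 0.0431).

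Mt1 and Mt2 had r = 0.738 (exact permutation p = 0.0351) and rho = 0.810 (exact permutation p = 0.0218), with adjusted p = 0.169 and 0.207. Without hearts 3 and 8, r was 0.656 (exact permutation p = 0.153). By rank the largest relation was an inverse one, between Nr3c1 and Tsc22d3 (rho = -0.905, exact permutation p = 0.00456, r = -0.698, exact permutation p = 0.0536, adjusted p = 0.130 and 0.169), with r = -0.736 without hearts 3 and 5 (exact permutation p = 0.0806). Nr3c1 also ran against Mt1 (r = -0.797, exact permutation p = 0.0178, rho = -0.619, exact permutation p = 0.115, adjusted p = 0.169 and 0.259), and this rested on hearts 3 and 5, without which r was -0.267 (exact permutation p = 0.547). Hearts 3 and 5 were also lowest for Ncor1 (96.8 and 98.0 CPM) and Ryr2 (1235 and 1082 CPM) and highest for Bax (12.9 CPM each). These genes were named after their values were seen, and a shift of many genes in hearts 3 and 5 was not tested. Of the 36 pairs, 18 had r above 0, 9 had an unadjusted exact permutation p under 0.05 and 0 an adjusted one. Groups of 4 hearts are too small for an r within a genotype. When each heart was taken as a deviation from its group mean, r was 0.89 for Tsc22d3 and Cdkn1a, 0.83 for Zbtb16 and Klf9 and 0.75 for Mt1 and Mt2. For the inverse pairs it was -0.61 (Nr3c1 and Tsc22d3) and -0.77 (Nr3c1 and Mt1).

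**Figure D2:**
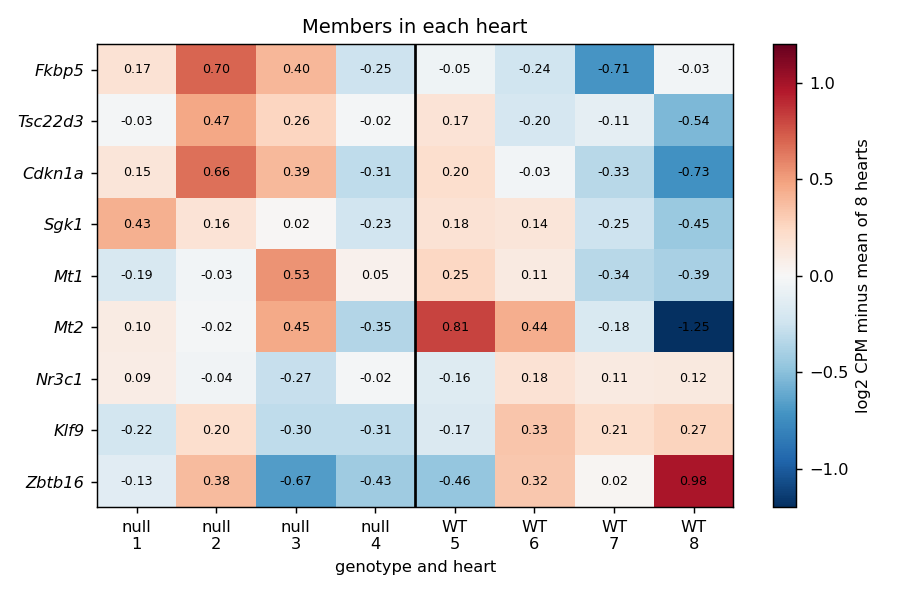
Rows are the 9 genes and columns the 8 hearts (null 1 to 4, WT 5 to 8), and each cell prints log2 CPM minus the gene's mean over the 8 hearts, with red above and blue below it. Heart 2 is at 0.70, 0.47 and 0.66 for Fkbp5, Tsc22d3 and Cdkn1a, and heart 8 at 0.98 for Zbtb16 and at -1.25 for Mt2.

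Among all tested genes outside the list, those whose log2 CPM over the 8 hearts was most like a member's were found by Pearson's r, a description for which no test was made. They were Yme1l1 (0.993) and Sel1l (0.980) for Nr3c1, Trpm4 (0.950) and Gm20219 (0.928) for Fkbp5, and Ddit4 (0.967) and Gfra3 (0.937) for Tsc22d3. For Zbtb16 they were Mmgt1 (0.985) and Asph (0.976), for Sgk1 AW551984 (0.947) and Hoxa5 (0.942), and for Cdkn1a Fbxl8 (0.956) and Zfp36 (0.953). For Mt1 they were Ilkap (0.966) and Gm10638 (0.965), for Mt2 Hoxa3 (0.965) and Atp6v0e (0.948), and for Klf9 Gbp9 and Fbxo38 (0.964 each). Ddit4, an inhibitor of mTORC1 signalling, is on the list of other glucocorticoid targets, and Zfp36, an RNA-binding protein, on that of immediate early genes. The other genes named here are on none of the lists. Each r is the highest of a search through all tested genes over only 8 hearts, so its size carries no weight by itself.

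Among 25 genes of receptor machinery (the mineralocorticoid receptor, hormone-converting enzymes, HSP90 co-chaperones and coregulators), 24 were tested, 12 had a log2 fold change above 0 and 12 below, and the median was 0.00. Only Dnajb1 among them, a co-chaperone of HSP70 that heat shock factor induces, was a DEG. It had 43.0, 27.4, 39.0 and 29.5 CPM in HVCN1 null hearts and 15.4, 12.8, 16.3 and 16.0 CPM in WT hearts, so that every HVCN1 null heart lay above every WT heart. This was a 2.29-fold rise (log2 fold change 1.19, SE 0.15, edgeR quasi-likelihood adjusted p = 0.00410). The chaperones Hspa8 and Hsp90aa1 had log2 fold changes of -0.23 and 0.25 (edgeR quasi-likelihood adjusted p = 0.581 and 0.656). The mineralocorticoid receptor Nr3c2 had 18.7 ± 2.48 CPM in HVCN1 null and 18.6 ± 3.05 CPM in WT hearts (n = 4 each, with SD), and Hsd11b1, which makes active glucocorticoid from its inert form, 15.2 ± 1.44 and 15.3 ± 2.69 CPM. These 2 genes were named after their values were seen.

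Of 34 other glucocorticoid targets, 32 were tested and 4 were DEGs, 1 higher and 3 lower in HVCN1 null hearts, beside 0.743% higher and 0.399% lower over all tested genes. This list, like the others, was chosen with earlier results of these data known, so these shares describe it and test nothing. The median log2 fold change of the 32 was 0.05, and 17 were above 0 and 15 below. At an unadjusted edgeR p under 0.05, 6 were higher and 3 lower, beside 5.46% and 5.52% of all tested genes. The groups did not overlap for 5 of them, with HVCN1 null above WT for 2 and below for 3, beside 3.6% and 3.45%. The DEGs were Per1, which rose, and Angptl4, Txnip and Pdk4, which fell.

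Per1 (ENSMUSG00000020893, chromosome 11, 69095217 to 69109960), a clock gene that glucocorticoids induce rapidly, had 96.9, 103.3, 96.8 and 65.1 CPM in HVCN1 null hearts and 56.8, 38.9, 42.4 and 37.3 CPM in WT hearts. Every HVCN1 null heart lay above every WT heart. The means were 90.5 ± 17.2 and 43.9 ± 8.91 CPM (SD, n = 4 each), a 2.06-fold rise (log2 fold change 1.04, SE 0.17, edgeR quasi-likelihood adjusted p = 0.0178). This Per1 call was lost without HVCN1 null hearts 1 or 3 or WT hearts 6 or 8 (adjusted p = 0.0577, 0.0556, 0.0776 and 0.0605). One of its 2 RefSeq windows holds an E-box (CACGTG, in 7.15% of windows), the site of the clock factors. Neither window matched the full or the relaxed glucocorticoid motif. An E-box was also found for the members Fkbp5 and Sgk1 and for Klf4, Klf6, Aen, Gdf15, Tsc22d1 and Slc39a8, so it is not particular to Per1. The stretch is shown because Per1 is the called gene that belongs to both pathways. It lies at chr11:69098743-69098828 on the + strand of GRCm38, with the E-box in capitals.
Per1: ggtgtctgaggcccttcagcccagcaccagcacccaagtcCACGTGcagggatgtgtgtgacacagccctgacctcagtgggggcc

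Angptl4 (ENSMUSG00000002289, chromosome 17, 33773750 to 33781830), an inhibitor of lipoprotein lipase that glucocorticoids, fasting and fatty acids induce, had 1.95, 6.23, 1.82 and 8.65 CPM in HVCN1 null hearts and 40.8, 44.5, 38.2 and 16.7 CPM in WT hearts. The highest HVCN1 null heart lay below the lowest WT heart. With means of 4.66 ± 3.35 and 35.1 ± 12.5 CPM (SD, n = 4 each) it fell 7.41-fold (log2 fold change -2.89, SE 0.49, edgeR quasi-likelihood adjusted p = 0.0202). For Angptl4 the call was lost without HVCN1 null heart 1 or WT hearts 5 or 6 (adjusted p = 0.0536, 0.0647 and 0.0684).

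Pdk4 (ENSMUSG00000019577, chromosome 6, 5483351 to 5496309), a kinase that shuts pyruvate out of oxidation and is induced by glucocorticoids and in fasting, had 202.9, 265.0, 154.3 and 340.1 CPM in HVCN1 null hearts and 598.1, 811.1, 683.0 and 367.7 CPM in WT hearts. Heart 8 was the lowest WT heart and heart 4 the highest HVCN1 null heart, with no overlap. It fell 2.56-fold (log2 fold change -1.35, SE 0.28, edgeR quasi-likelihood adjusted p = 0.0493). This call was lost in 10 of 17 other fits, 6 of them with 1 heart left out, each except those without HVCN1 null heart 4 or WT heart 8 (adjusted p up to 0.163).

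Txnip (ENSMUSG00000038393, chromosome 3, 96557957 to 96561883), a thioredoxin-binding arrestin that limits glucose uptake, had 279.3, 362.9, 209.8 and 346.8 CPM in HVCN1 null hearts and 668.6, 806.2, 743.1 and 472.0 CPM in WT hearts. Here too heart 8 was the lowest WT heart, and the groups did not overlap. Txnip fell 2.24-fold (log2 fold change -1.17, SE 0.20, edgeR quasi-likelihood adjusted p = 0.0241), which was not called without HVCN1 null hearts 1 or 3 or WT hearts 5, 6 or 7 (adjusted p up to 0.0928). The Txnip window holds a match to the relaxed glucocorticoid motif, shown at chr3:96557745-96557837 on the + strand of GRCm38, with the match in capitals, for comparison with Sgk1 and Mt1.
Txnip: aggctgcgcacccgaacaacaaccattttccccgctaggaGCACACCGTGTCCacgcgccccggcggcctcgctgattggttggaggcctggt
In the 4 hearts with atrial RNA the log2 fold changes of Per1, Angptl4, Pdk4 and Txnip were 1.01, -3.26, -1.62 and -1.31, and in the 4 hearts nearly without it 1.10, -2.51, -1.10 and -1.01. With 2 hearts against 2, none of these was called (edgeR quasi-likelihood adjusted p between 0.0826 and 0.429).

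**Figure D3:**
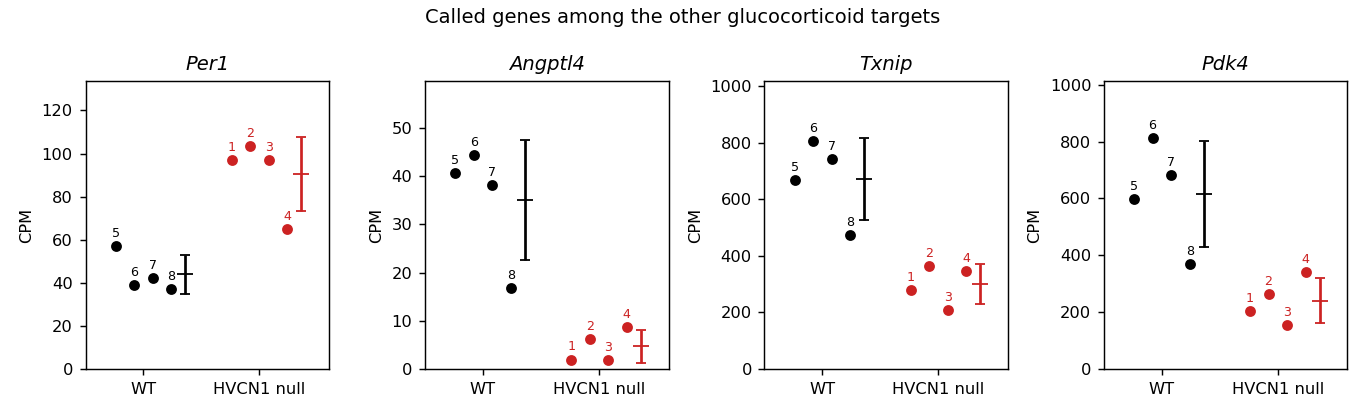
The 4 panels plot Per1, Angptl4, Txnip and Pdk4 in CPM (linear axis from 0), with 1 numbered point per heart and the mean with SD beside each group (n = 4 each). The HVCN1 null hearts lie wholly above the WT hearts for Per1 (65.1 to 103.3 against 37.3 to 56.8 CPM) and wholly below them for the other 3 genes.

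**Figure D4:**
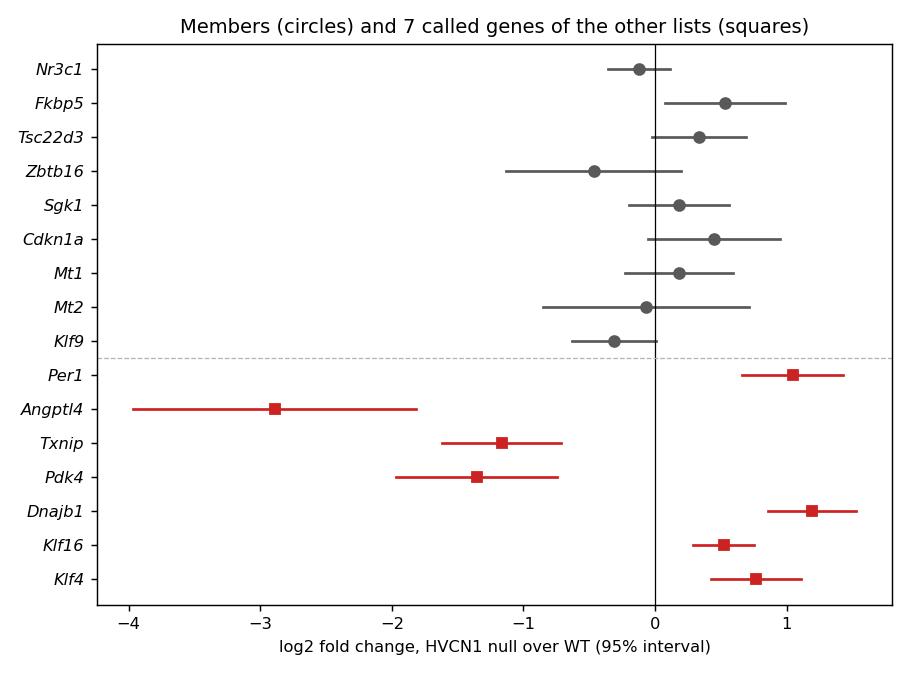
Points are log2 fold changes of HVCN1 null over WT and lines their 95% intervals (edgeR quasi-likelihood, 4 hearts each), with the 9 members as circles above the dashed line and the DEGs of the pathway lists (not of the cell type lists) as squares below it (red, adjusted p under 0.05). The members lie between -0.47 and 0.53, and these DEGs between -2.89 and 1.19.

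Per1 is also 1 of 17 clock genes, all of them tested. It was their only DEG in the main fit, 9 of the 17 had a log2 fold change above 0, and the median was 0.10. At an unadjusted edgeR p under 0.05, 6 were higher and 1 lower in HVCN1 null hearts, beside 5.46% and 5.52% of all tested genes. The lower one was Arntl (log2 fold change -0.45), named after its values were seen. For 4 of the 17 (Per1, Per2, Bhlhe40 and Ciart) every HVCN1 null heart lay above every WT heart, beside 3.6% of all tested genes, and Ciart was named for this after its values were seen. The summed level of the list was 621.3 to 694.4 CPM in HVCN1 null and 517.4 to 612.4 CPM in WT hearts, with no overlap, but without Per1 the sums were 518.0 to 597.6 and 460.5 to 575.1 CPM and overlapped. Per2, the partner of Per1 in the repressor complex, had 6.15 to 12.6 CPM in HVCN1 null hearts and 3.28 to 5.27 CPM in WT hearts (log2 fold change 1.17, edgeR quasi-likelihood adjusted p = 0.0527). Bhlhe40, a repressor of clock genes, had 33.7 to 56.7 CPM and 24.1 to 31.4 CPM (log2 fold change 0.77, adjusted p = 0.0505). In 17 other fits Bhlhe40 was called in 8 and Per2 in 7, so Per1 as the only DEG of the list depends on the fit. The part of the clock in the values of Per1 was not tested, and the time of day at which hearts were taken is not given in the sources used here.

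Of 18 immediate early genes, which also answer to handling and stress, 13 had a log2 fold change above 0, the median was 0.20 and only Klf4 was a DEG in the main fit. At an unadjusted edgeR p under 0.05, 5 were higher and 1 lower in HVCN1 null hearts, beside 5.46% and 5.52% of all tested genes. For 3 of the 18 every HVCN1 null heart lay above every WT heart, and for 0 below, beside 3.6% and 3.45%. Klf4 had 59.2 to 104.0 CPM in HVCN1 null hearts and 42.3 to 51.4 CPM in WT hearts (log2 fold change 0.77, SE 0.15, edgeR quasi-likelihood adjusted p = 0.0489). The call of Klf4 was lost in 10 of 17 other fits, in 7 of which 1 heart was left out. Klf6 and Klf2, 2 more zinc finger factors of this list, had log2 fold changes of 0.58 and 0.59 (adjusted p = 0.0573 and 0.173). They were called in 6 and 2 of 17 other fits. The summed level of the list was 633.6 to 893.6 CPM in HVCN1 null hearts and 526.1 to 710.5 CPM in WT hearts. HVCN1 null heart 2 had the highest and heart 4 the lowest sum of its group, and among WT hearts the sum was highest in heart 5 (710.5 CPM), next in heart 8 (607.0 CPM) and lowest in heart 6 (526.1 CPM). The part of this list in the values of the members was not tested.

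Among the relatives of the members (14 genes, 11 tested), Klf16, a zinc finger repressor of the same family as Klf9, was the only DEG. It had 9.27 to 11.4 CPM in HVCN1 null hearts and 6.85 to 7.60 CPM in WT hearts (log2 fold change 0.52, SE 0.10, edgeR quasi-likelihood adjusted p = 0.0466), the opposite sign to Klf9. The call of Klf16 was lost whichever of the 8 hearts was left out (adjusted p from 0.0544 to 0.155). The p21 relative Cdkn1c and the GILZ relative Tsc22d1 had log2 fold changes of -0.24 and -0.12 (adjusted p = 0.583 and 0.771).

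Neither of the lists for the other known inducers of Cdkn1a and the metallothioneins held a DEG in the main fit. Of 18 p53 targets 10 had a log2 fold change above 0, with a median of 0.07. Aen, a p53-induced nuclease, had 16.6 to 21.4 CPM in HVCN1 null hearts and 22.3 to 30.8 CPM in WT hearts (log2 fold change -0.50, edgeR quasi-likelihood adjusted p = 0.101). The growth factor Gdf15 had a log2 fold change of 1.01 (adjusted p = 0.211) and Zmat3, an RNA-binding protein, one of -0.21 (adjusted p = 0.628). In 17 other fits Aen was called in 4 and Gdf15 in 1. Of 11 genes of metal response 9 were tested, 2 above 0 and 7 below, with a median of -0.03. The zinc transporters Slc39a1, Slc30a7 and Slc39a8 had the smallest p-values of that list, with log2 fold changes of -0.11, 0.12 and -0.42 (adjusted p = 0.762, 0.875 and 0.906).

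Marker genes of other cells were examined in the same fit. All 10 macrophage markers had a log2 fold change below 0 (median -0.31, no DEG), with a summed level of 223.0 to 288.6 CPM in HVCN1 null and 253.8 to 360.7 CPM in WT hearts. All 7 erythroid genes were below 0 as well (median -1.02, no DEG), with 1292 to 8394 CPM against 3020 to 15234 CPM. The sums of 6 endothelial genes (818.1 to 1028 against 873.3 to 1068 CPM) and 6 fibroblast genes (687.1 to 1089 against 738.6 to 1121 CPM) overlapped. T cell, B cell and neutrophil markers summed to at most 24.2 CPM in any heart. Among the adipocyte genes Lep and Ucp1 were not kept by the filter, and the 4 tested were below 0 with no DEG. Acta2, a smooth muscle actin named after its values were seen, was the only DEG of the cell type lists (log2 fold change 1.32, edgeR quasi-likelihood adjusted p = 0.0466). Its list, 6 smooth muscle and pericyte genes, had 3 log2 fold changes above 0 and 3 below, with a median of 0.02. Of that list Myh11 had 0.30, Tagln 0.08, Rgs5 -0.04, Pdgfrb -0.10 and Cspg4 -0.45. For Cspg4 every HVCN1 null heart lay below every WT heart (edgeR quasi-likelihood adjusted p = 0.260). The part of these cells in the values of the members was not tested.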

How the data were processed

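RNA from 8 mouse hearts (4 HVCN1 null, 4 WT) was measured by poly-A RNA-seq. Per the submitters' processing notes and the study's methods, the authors aligned paired reads with STAR to mm10 (GRCm38) and used featureCounts for gene totals. The strand setting and annotation release are not given in the sources used here. The study's text also names a genome of another species, but the identifiers are mouse. The deposited values are raw counts per gene and heart, not normalized. Symbols and positions came from GENCODE M21, in which 38872 of 39056 identifiers were found, and promoter windows from RefSeq on GRCm38.p6.

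Genes were kept by filterByExpr of edgeR 4.0.16 (R 4.3.3), scaled by TMM and tested with edgeR's quasi-likelihood test, with Benjamini-Hochberg adjustment. Log2 CPM used a prior count of 2. Intervals on fold changes are 95% intervals from the test's standard error and degrees of freedom. FPKM is CPM per kilobase of joined exons. Alternatives used DESeq2 1.42.0 and limma 3.58.1. Near-identical copies were sought with BLAST+ 2.17.0, and none of the 9 members matched another gene at 95% or more over 80% of its length. Tests were checked on simulated counts.

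Genes named beside the members are, per list, every DEG and the genes of smallest p, 3 in all or 4 where 4 were called, and the 2 genes most like each member. Hearts were numbered by the serial numbers in the labels, which also give the genotype. That each library is 1 heart is taken from the study's n = 4 hearts per group. The members and lists were chosen with earlier results of these data known. The division of hearts by Myl7, at 100 CPM, was made after seeing the data. No batch is given by the labels. Depth sets the counting error of each value, and n = 4 limits the rest.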

Additional observations from a re-analysis of the deposited data

Results flagged for a closer look

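Among 62 sets of 4 hearts examined (31 genes in each genotype), 3 held a heart far from the other 3, by the gap to its nearest neighbour over the range of the group, and chance gives about 1 in 20. For Klf9, HVCN1 null heart 2 had 80.5 CPM, where the next heart had 60.0 CPM. For Per1, HVCN1 null heart 4 had 65.1 CPM, below the 96.8 CPM of the next heart. For Hsp90aa1, WT heart 6 had 99.1 CPM, above the next heart at 79.6 CPM.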

How the results depend on the processing

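The 9 members stayed without a DEG under every alternative run: DESeq2, voom, edgeR's likelihood ratio and exact tests, RLE scaling, unscaled libraries, omission of the filter or a filter at 1 CPM, an atrial score as a covariate, each heart left out in turn and, added after seeing the data, the hearts with or without atrial RNA alone. Stricter thresholds were applied to the main fit, which called no member, so they could not add one. The smallest adjusted p of any member over the alternatives set at the start was 0.156, for Fkbp5. Over all genes the number of DEGs moved from 169 to 367 with edgeR's exact test, 376 with its likelihood ratio test, 466 with DESeq2, 56 at an adjusted p under 0.01 and 109 where a log2 fold change beyond 1 either way was also asked. It was 71 to 152 with 1 heart left out (71 without WT heart 6, 92 without 5, 99 without HVCN1 null heart 1, 103 without 3 and 104 without WT heart 8), 24 in the hearts with and 71 in those without atrial RNA, where fewer hearts entered. One member, Fkbp5, had an exact permutation p under 0.05 without HVCN1 null heart 4 (0 to 1 over the leave-one-out values). Heart 4 was its only overlapping HVCN1 null heart, so this p was the smallest possible once that heart was left out. With library sizes not scaled, 1 pair of members had an adjusted p under 0.05. Calls were gained as well among the named genes not called in the main fit. Of 17 other fits, Bhlhe40 was called in 8, Per2 in 7, Klf6 in 6, Aen in 4, Klf2 in 2, and Gdf15 and Gfra3 in 1 each. Some log2 fold changes of genes that were not called changed sign. Mt2 was 0.040 with voom, 0.075 without atrial RNA and -0.34 to 0.25 with 1 heart left out, and Zbtb16 was 0.14 with atrial RNA. Among the genes named beside the members, in hearts with atrial RNA Slc30a7 was -0.013, Mmgt1 0.018, Asph 0.026, Hoxa5 -0.26 and Hoxa3 -0.063. With 1 heart left out, Slc39a8 lay between -1.10 and 0.42, Hoxa5 between -0.34 and 0.36, Hoxa3 between -0.30 and 0.36 and Atp6v0e between -0.027 and 0.10. The cause was not tested. No paired analysis was possible because the hearts of each genotype are numbered apart.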
